A study of Mus musculus with 3 samples.

Results

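Genes of glycolysis, lactate handling and the tricarboxylic acid (TCA) cycle were described in distal colons that were taken on day 7 from male BALB/c mice. There were 3 groups with 1 array each. WT normal mice drank water, WT colitis mice drank 3% dextran sulfate sodium (DSS), a polymer that injures the colonic epithelium, and IL-4Rα-/- colitis mice carried the Il4ra tm1Sz allele, which removes the α subunit of the receptor for IL-4 and IL-13, and drank 3% DSS as well. All were adult littermates from crosses of heterozygous mice. RNA of 4 mice was pooled for WT normal, of 3 for WT colitis and of 6 for IL-4Rα-/- colitis before hybridisation, so there was no replicate array, no error and no test of expression, and no array of untreated IL-4Rα-/- mice was analysed here. The mice of the pools differed in severity, with a disease activity index (diarrhea and blood in the stool) of 0 in every WT normal mouse, 3 to 4 in WT colitis and 0 to 3 in IL-4Rα-/- colitis, so genotype and severity cannot be told apart between the colitis arrays.

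The pathway was selected on the log2 differences between these same 3 arrays, Eno3 above all, so the differences are given as a description. Its 42 genes were chosen by name from the enzymes and transporters of the pathway. A probe set with 1 gene symbol represented 40 of them, out of 19938 genes so represented, while Gpi1 and Eno1 had none and were not analysed here. The brightest probe set on average stood for a gene that had more than 1. Values are log2 signals as deposited, a difference of 1 is 2-fold, and the levels of different genes are not compared, because each probe set binds with its own strength. In this order of arrays (WT normal first, WT colitis next and IL-4Rα-/- colitis last), which all sets of 3 values below follow, the log2 signal of Il4ra itself was 5.69, 6.63 and 4.76. The knockout array had the lowest value, but whether its probes lie in the deleted part is not known here. The median signal was 4.11, 4.18 and 4.11 on the 3 arrays. The 95th percentile of 1210 probe sets of olfactory and vomeronasal receptors, which the colon hardly uses, was 3.5, and signals at or below it were taken as background. All 3 values were equal to the second decimal in 45.8% of genes and in 7 of the 40 members, so an equal value is common in this table. Genes of another organ had high signals on 1 array. The summed signal of 6 genes of the exocrine pancreas was 2305 on the WT normal array against 80.7 with WT colitis and 98.8 on the IL-4Rα-/- array, with chymotrypsinogen (Ctrb1) at 10.55, 3.49 and 3.03, so comparisons with WT normal carry this difference and that between the colitis arrays carries little of it. Its part in the members' differences was not tested.

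Glycolysis splits glucose into pyruvate in the cytosol. Pyruvate is then reduced to lactate or enters the mitochondrion, where pyruvate dehydrogenase feeds it into the TCA cycle. Colonocytes, the absorptive cells of the colonic surface, draw much of their energy from butyrate made by bacteria, which they oxidise in mitochondria, whereas activated immune cells and tissue short of oxygen lean on glycolysis. Many steps are served by several isoenzymes that differ between tissues. Enolase, for example, has a ubiquitous α form (Eno1), a neuronal γ form (Eno2) and a β form known from skeletal muscle (Eno3).

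Of the 40 measured members, 2 (Eno3 and Slc37a2) passed 2-fold in at least 1 of the 3 comparisons. The other 38 lay within 2-fold in each. Shares of all 19938 genes past 2-fold in WT colitis against WT normal were 1.16% upward and 0.456% downward. In IL-4Rα-/- colitis against WT colitis, the shares were 0.271% upward and 0.908% downward. Against WT normal, IL-4Rα-/- colitis had 0.186% upward and 0.336% downward. A share of all genes over the 3 comparisons together is not given here. Eno3 was 5.10-fold lower in WT colitis relative to WT normal and 4.82-fold higher in IL-4Rα-/- than in WT colitis. Slc37a2, which exchanges glucose 6-phosphate for phosphate at the membrane of the endoplasmic reticulum, was 4.06-fold higher in IL-4Rα-/- than in WT colitis. The sequences before an annotated start of these genes are shown because they are the members with the largest differences. They are from RefSeq (GRCm38.p6), read 5′ to 3′ on the strand of the gene, at chr11:70656926-70657175 (plus strand) for Eno3 and chr9:37255739-37255988 (minus strand) for Slc37a2, and the Eno3 window lies at a start inside the gene rather than at its outermost one. Capitals mark matches to any of the motifs searched.
Eno3: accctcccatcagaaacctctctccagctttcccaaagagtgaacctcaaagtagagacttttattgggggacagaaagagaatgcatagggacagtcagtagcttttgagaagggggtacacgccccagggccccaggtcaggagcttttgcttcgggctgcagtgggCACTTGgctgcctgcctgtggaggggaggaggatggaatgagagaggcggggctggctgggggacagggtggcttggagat
Slc37a2: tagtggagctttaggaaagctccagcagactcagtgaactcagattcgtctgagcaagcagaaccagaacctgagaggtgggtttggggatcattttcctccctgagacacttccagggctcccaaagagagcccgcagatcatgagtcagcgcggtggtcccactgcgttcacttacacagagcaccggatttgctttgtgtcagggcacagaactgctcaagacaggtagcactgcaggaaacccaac

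The motifs were searched on both strands of these 250 bases. They were the hypoxia response core ACGTG, the E-box CACGTG (which contains it), the HNF4 core CAAAGTCCA and the CDX2 core TTTATG, from factors of hypoxia and of the colonic epithelium, and, added later, the general E-box CANNTG, which also contains CACGTG. Eno3 held 1 CANNTG and none of the other letters, and Slc37a2 held none. Of all 32851 promoters in the table, 66.2% held CANNTG, 16.6% ACGTG, 6.02% CACGTG, 10.8% TTTATG and 0.384% CAAAGTCCA. Among the 41 genes of the pathway with a promoter in the table, ACGTG was found for 17, CACGTG for 7, CANNTG for 30, TTTATG for 1 and CAAAGTCCA for 0, where a gene with several starts was counted if any start held the letters. The shares are per promoter and the pathway's counts are per gene, so they are not compared. A match is no binding site, and its absence here says nothing of a factor.

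**Figure D1:**
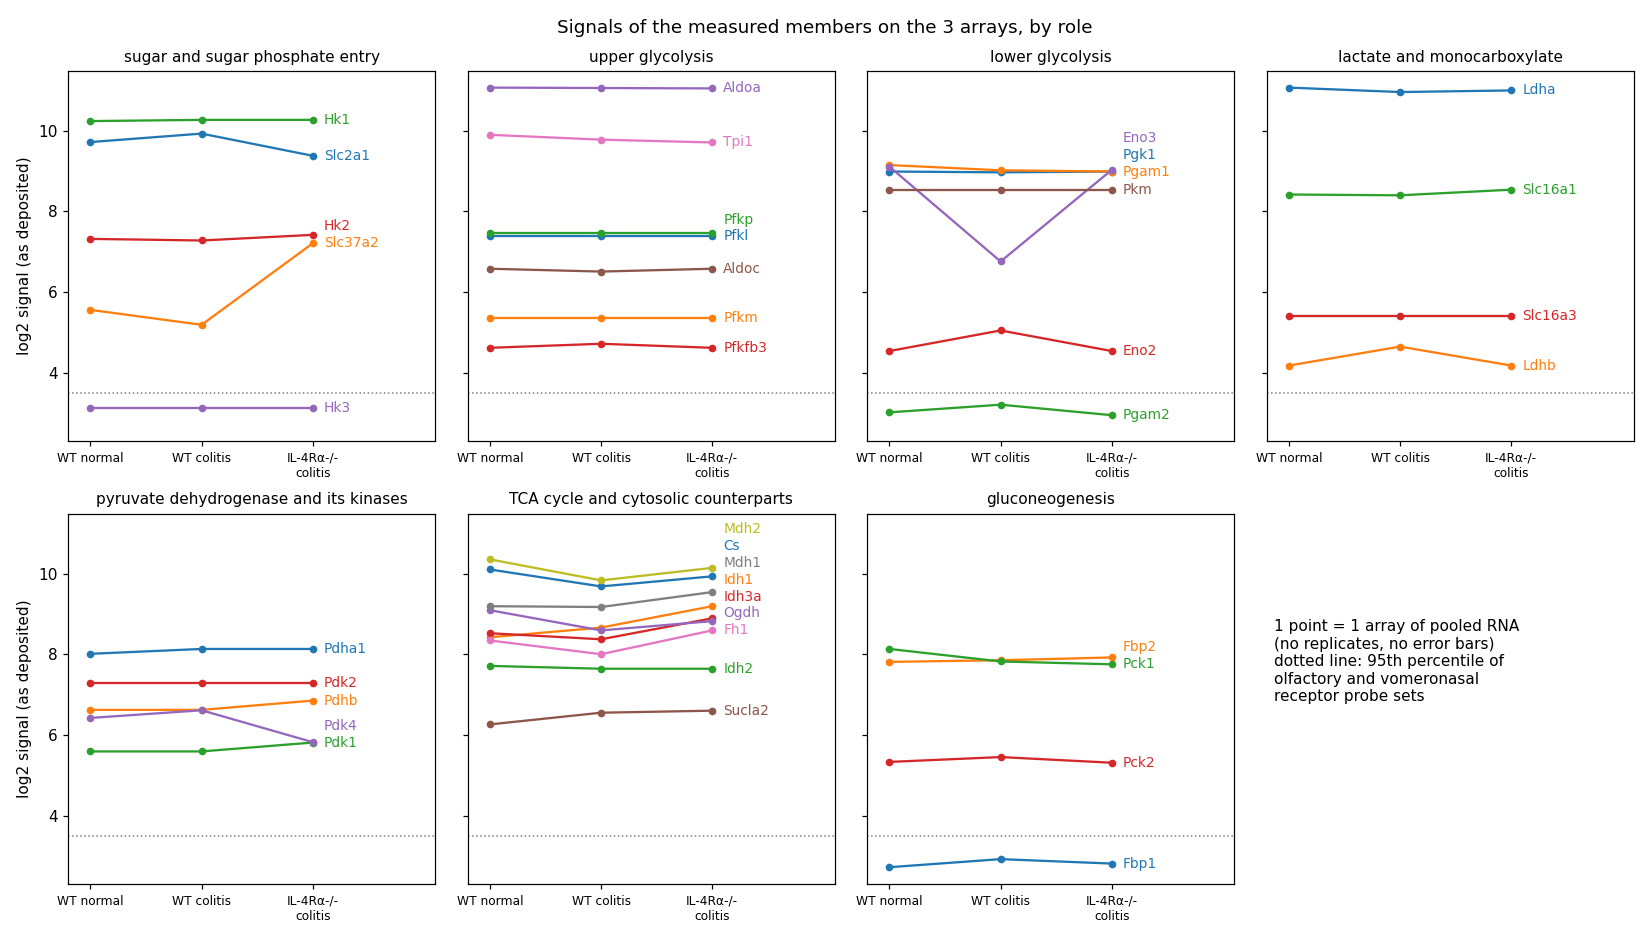
Log2 signal (y axis) of the 40 measured members on the 3 arrays (x axis), in 1 panel per role, with 1 point per array and the background of 3.5 as a dotted line. Eno3 is low in WT colitis alone, at 6.76, and Slc37a2 is high in IL-4Rα-/- colitis alone, at 7.21, while most other lines are nearly flat.

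For Eno3 the log2 signals were 9.11, 6.76 and 9.03. WT colitis was thus the low array, and the other two lay 0.08 apart. Among 19938 genes, Eno3 ranked 22 from the lowest difference in WT colitis against WT normal and 5 from the highest in IL-4Rα-/- colitis against WT colitis. The WT colitis array enters each of these differences, so they are not independent. Eno2, the neuronal enolase, had 4.54, 5.05 and 4.54, 1.42-fold higher in WT colitis than on either other array. In bulk tissue, fewer cells of a type and less RNA per cell cannot be told apart.

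Marker genes of cell types that could carry Eno3 were set beside it. Of 8 colonocyte genes, 6 were lower in WT colitis relative to WT normal, beside 12.0% of all genes. Among genes with a mean log2 signal of 8 or more, which all of these have, 35.0% were lower. By more than 2-fold, 2 colonocyte genes were lower, beside 0.456% of all genes. They were the water channel Aqp8 (log2 signals of 9.59, 8.03 and 9.67) and the chloride exchanger Slc26a3 (10.11, 9.05 and 10.01). The carbonic anhydrase Car1 (12.80, 12.67 and 12.83) and the cell adhesion molecule Ceacam1 (12.38 on each array), also among the 8, differed by little or not at all. The summed linear signal of the 8 was 20602, 17864 and 20076. For 8 general epithelial genes the sums were 14229, 12713 and 12888, and none of them differed by more than 2-fold. In WT colitis relative to WT normal, 6 of them were lower, 1 was higher (Epcam) and 1 was equal (Cdh1). Krt18 was the farthest at -0.51. Beside these stand the same 12.0% of all genes and 35.0% of genes with a mean log2 signal of 8 or more that were lower. Of 8 skeletal muscle genes, 4 were higher and 0 lower in WT colitis as deposited, but 3 were higher and 5 lower after median centring, so no direction is given, and the sums were 151, 159 and 137. Their largest difference between WT colitis and WT normal was 0.23 (Acta1, skeletal actin), and 4 of them, Myh4, Myh1, Mylpf and Myog, were at or below 3.5 on every array. The Eno3 difference of -2.35 was beyond that of any gene on these 3 lists, of which Aqp8 had the largest at -1.56. The part of cell composition in the Eno3 signal was not tested.

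**Figure D2:**
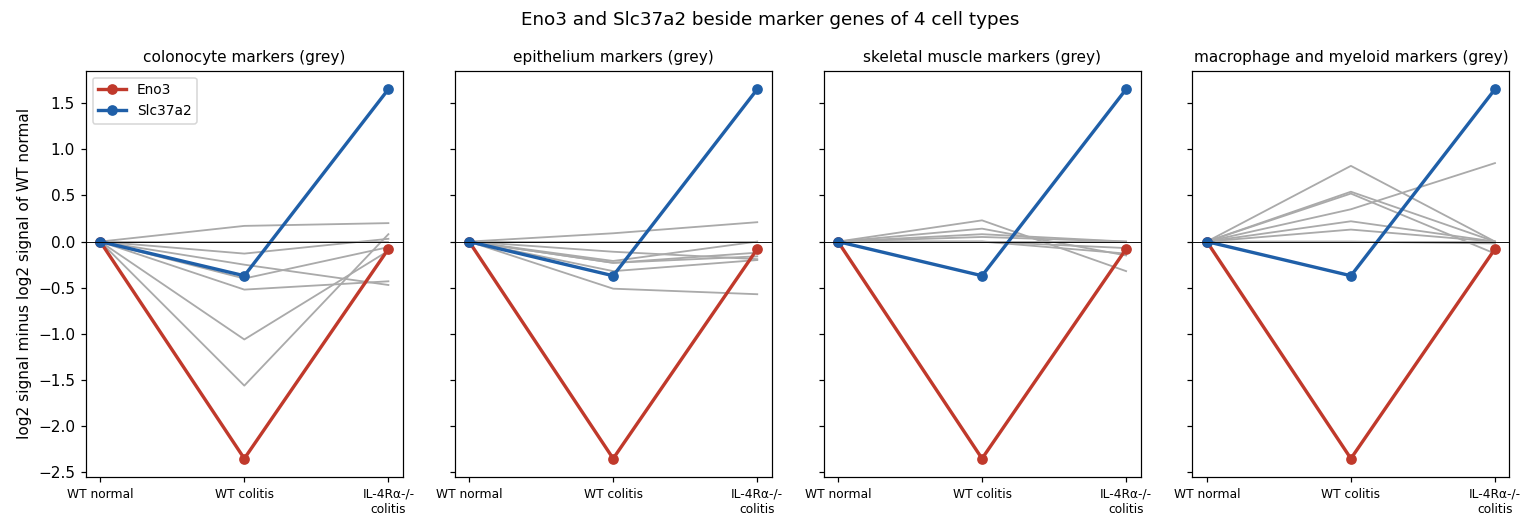
Log2 signal minus that of WT normal (y axis) on the 3 arrays (x axis) for Eno3 (red), Slc37a2 (blue) and the marker genes of 4 cell types (grey lines, 1 per gene). Eno3 reaches -2.35 in WT colitis, below every marker, with Aqp8 (-1.56) and Slc26a3 (-1.06) the lowest grey lines, and skeletal muscle genes stay between -0.32 and 0.23.

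Sugar enters through Slc2a1, the glucose transporter GLUT1, which had log2 signals of 9.72, 9.93 and 9.38. On the IL-4Rα-/- array it lay 1.46-fold below WT colitis. Slc37a2 had 5.56, 5.19 and 7.21, so it was high in IL-4Rα-/- colitis and low on both WT arrays, a difference of 2.02 from WT colitis and of 1.65 from WT normal. Its rank from the highest difference among 19938 genes was 9 in each of these comparisons, which share the IL-4Rα-/- array. The other carriers of its family differed by at most 0.02 between any arrays, with 8.45, 8.43 and 8.45 for Slc37a1, 6.57 on each array for Slc37a3, and 6.11, 6.12 and 6.12 for Slc37a4, the glucose 6-phosphate translocase. Slc37a2 is also known from macrophages. Of 8 macrophage and myeloid genes, 6 were lower and 1 was higher in IL-4Rα-/- than in WT colitis as deposited (5 and 3 after median centring). As deposited, 37.3% of all genes were lower and 10.4% higher. The higher one of the 8 was Cd14 (5.75, 6.10 and 6.60). Their summed linear signal of 1114, 1540 and 1090 was mostly that of Lyz2 (9.60, 10.12 and 9.47). None of the 8 was at or below 3.5, and their part in the Slc37a2 difference was not tested.

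Hexokinases trap glucose in the cell by phosphorylation. Hk2, the inducible form, had 7.32, 7.28 and 7.42 on the 3 arrays, and Hk1, the general form, had 10.24, 10.27 and 10.27. Hk3, the form of myeloid cells, was at 3.12 on each array, below 3.5, so no change of it could be read. For Hk1 the probe set used was linked to no RefSeq transcript, and the probe set linked to RefSeq transcripts had 7.53, 7.46 and 7.45.

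The upper steps of glycolysis showed little difference. In the 7 measured genes of this group, differences lay between -0.12 and 0.10 in WT colitis against WT normal and between -0.10 and 0.07 in IL-4Rα-/- colitis against WT colitis. The 3 subunits of phosphofructokinase, the committed step, had equal values on all arrays, 7.38 for Pfkl, 5.36 for Pfkm, the muscle form, and 7.46 for Pfkp. Pfkfb3, which makes the activator of that step, had 4.62, 4.72 and 4.62. Aldolase A (Aldoa) had 11.07, 11.06 and 11.05, the neural aldolase C (Aldoc) 6.58, 6.51 and 6.58, and triosephosphate isomerase (Tpi1) 9.90, 9.78 and 9.71.

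Among the lower steps, Eno3 was the sole gene of 6 past 2-fold. Phosphoglycerate kinase (Pgk1) had 8.99, 8.97 and 8.99, and its 3 probe sets each gave a difference of -0.02 and then 0.02. Phosphoglycerate mutase (Pgam1) had 9.15, 9.02 and 8.99, and its other 2 probe sets shared the values 8.99, 8.76 and 8.86. Pgam2, the muscle form of that enzyme, stayed between 2.95 and 3.21, at background. Pyruvate kinase (Pkm) was at 8.52 on each array, and at 7.29 on each array on its probe set linked to RefSeq transcripts.

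Lactate dehydrogenase A (Ldha), which turns pyruvate into lactate, had 11.07, 10.96 and 11.00. Ldhb, the form that favours the reverse reaction, had 4.18, 4.65 and 4.18, but its other probe set was at 3.50, 3.50 and 3.45, so its probe sets disagreed and the second was at background. The monocarboxylate transporter Slc16a1, which carries lactate and butyrate, had 8.42, 8.40 and 8.54, and Slc16a3, the lactate exporter of glycolytic cells, was at 5.41 throughout.

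Pyruvate dehydrogenase and the kinases that switch it off differed by at most 0.23 apart from Pdk4. Pdk4, a kinase known to be induced by fasting and by fatty acids, had 6.42, 6.61 and 5.82, 1.73-fold lower on the IL-4Rα-/- array than on that of WT colitis and 1.52-fold lower than on that of WT normal. Pdk1, the kinase induced by hypoxia, had 5.59, 5.59 and 5.81, and Pdk2 was at 7.28 on each array. The subunits of the enzyme itself had 8.01, 8.13 and 8.13 for Pdha1 and 6.62, 6.62 and 6.85 for Pdhb.

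TCA cycle genes showed small differences, and between IL-4Rα-/- colitis and WT normal 5 of the 9 members were higher and 4 lower. Of all 19938 genes, 3265 were higher, 3560 lower and 13113 equal between those arrays. Of 9 genes of the cycle and its cytosolic counterparts, 7 were lower and 2 higher in WT colitis relative to WT normal, with a median difference of -0.15, and 8 were higher and 0 lower in IL-4Rα-/- than in WT colitis, with a median of 0.31. The median of all genes was 0 in both comparisons, which share the WT colitis array. Of all genes, 12.0% were lower by any amount in the first comparison and 10.4% higher in the second, against 35.0% and 35.6% of the 1334 genes with a mean signal of 8 or more, a level that 7 of these 9 genes reach. The members were chosen with these differences known, so nothing is read from the counts. None of the 9 passed 2-fold, and without replicates it is not known how much of such differences is noise between arrays.
Malate dehydrogenase 2 (Mdh2), the last enzyme of the cycle, had 10.35, 9.83 and 10.14, 1.43-fold lower in WT colitis relative to WT normal. Oxoglutarate dehydrogenase (Ogdh) had 9.09, 8.59 and 8.82, and citrate synthase (Cs), the entry step, had 10.10, 9.68 and 9.93. For these 3 genes the IL-4Rα-/- colitis array lay between the WT arrays. Fumarate hydratase (Fh1) had 8.34, 8.00 and 8.59, and Idh3a, the catalytic subunit of the NAD-dependent isocitrate dehydrogenase, had 8.52, 8.37 and 8.89. Both were lowest in WT colitis and highest in IL-4Rα-/- colitis, where Fh1 was 1.51-fold above WT colitis. Sucla2, a subunit of succinyl-CoA ligase, had 6.26, 6.55 and 6.60, and the mitochondrial Idh2 had 7.71, 7.64 and 7.64. The cytosolic enzymes were also highest in IL-4Rα-/- colitis. Idh1, a source of NADPH, had 8.42, 8.66 and 9.19, 1.44-fold above WT colitis and 1.71-fold above WT normal, and Mdh1, of the malate-aspartate shuttle, had 9.19, 9.17 and 9.54.

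Gluconeogenesis reverses glycolysis, mainly in liver and kidney. Pck1, its control point, which adipocytes also use to make glycerol phosphate, had 8.13, 7.82 and 7.75. The summed signal of 7 adipocyte genes was 226, 203 and 166 on the same arrays. Adiponectin (Adipoq) had 3.90, 3.32 and 3.26, the lipid droplet genes Plin1 and Cidec had 4.03, 3.44 and 3.44 and 5.95, 5.10 and 5.02, and Fabp4 had 5.82, 6.14 and 5.59. Pck1 and the first 3 of these were thus highest in WT normal, while Fabp4 and Retn (5.08, 5.11 and 4.45) were highest in WT colitis. Lipe was at 5.24 on each array, and Lep was at background at 2.35. On both colitis arrays, Adipoq and Plin1 were below 3.5. The part of adipocyte genes in the Pck1 difference was not tested. Fbp2, the muscle form of fructose bisphosphatase, had 7.81, 7.85 and 7.92, the mitochondrial Pck2 had 5.33, 5.45 and 5.31, and Fbp1, the liver form, stayed between 2.72 and 2.92, at background.

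Over all measured members, 0 were more than 2-fold higher and 1 lower in WT colitis relative to WT normal, beside 1.16% and 0.456% of all genes. In IL-4Rα-/- colitis against WT colitis, 2 were higher and 0 lower, beside 0.271% and 0.908%. Between IL-4Rα-/- colitis and WT normal, where genotype and treatment both differ, 1 was higher (Slc37a2) and 0 lower, beside 0.186% and 0.336%. Counting any difference, 13 members were higher and 18 lower in WT colitis relative to WT normal, beside 35.8% and 12.0% of all genes. In IL-4Rα-/- colitis against WT colitis, 18 were higher and 12 lower, beside 10.4% and 37.3% of all genes. These last counts depend on the scaling: with each array centred on its median, 11 members were higher and 29 lower in the first comparison, as were 5610 and 14057 of all genes, and 30 were higher and 8 lower in the second, as were 13858 and 5746. Since the differences were known when the members were chosen, all these counts are given as context. The median difference of the members was 0 in each comparison, as it was for all genes. Next to Eno3 and Slc37a2, the largest differences were those of Mdh2 (-0.52) in the first comparison, Pdk4 (-0.79) in the second and Idh1 (0.77) in the third.

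**Figure D3:**
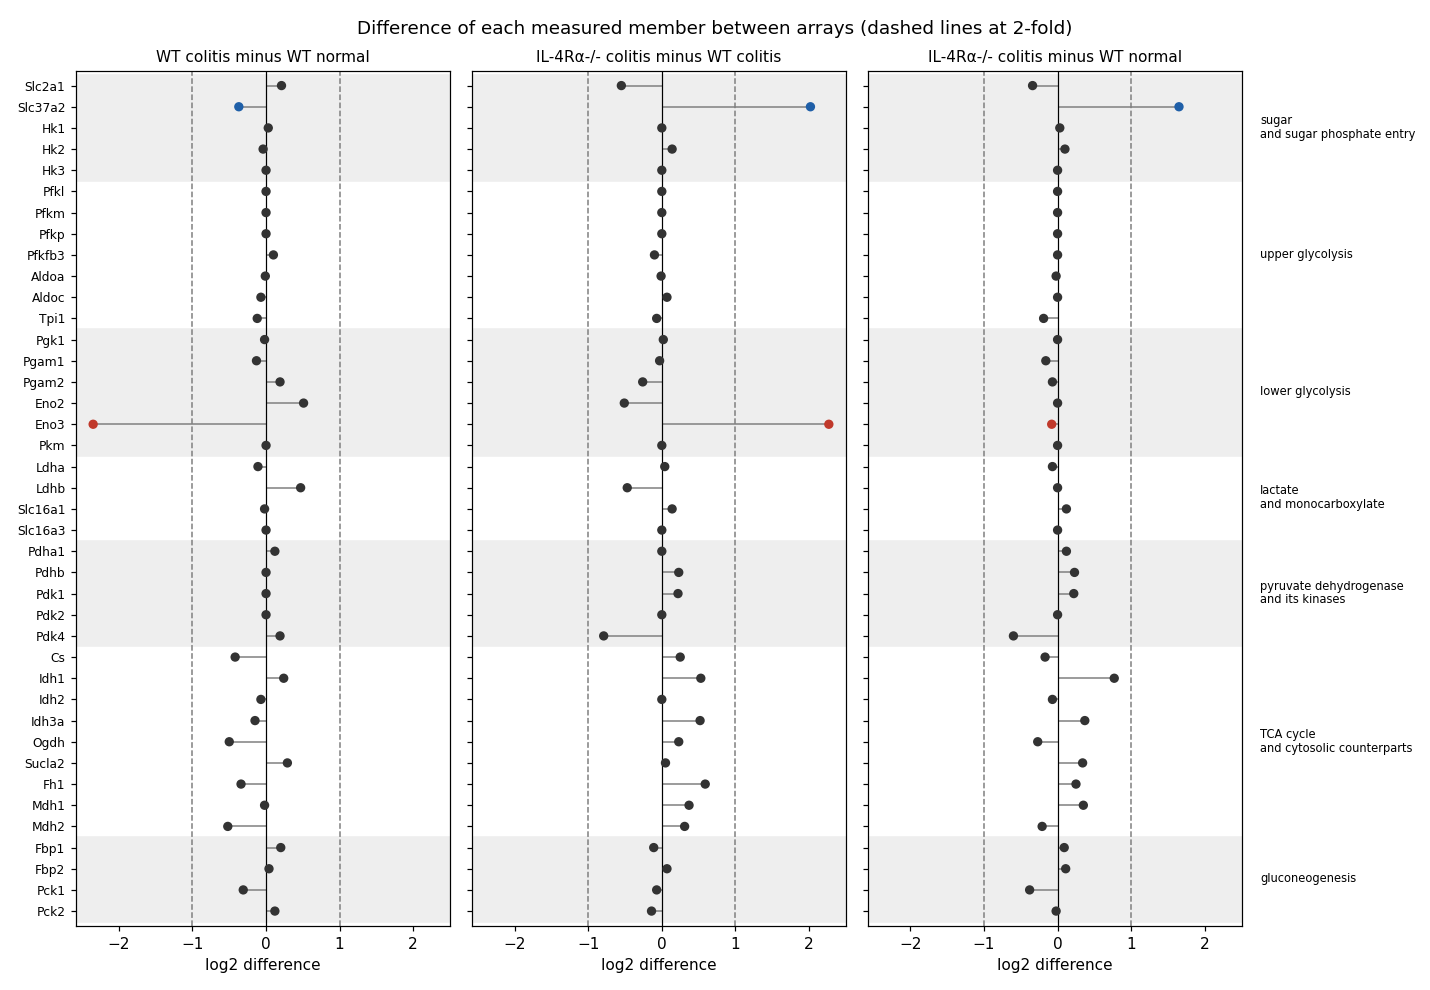
Log2 difference (x axis) of each of the 40 measured members (y axis, grouped by role) in the 3 comparisons, with dashed lines at 2-fold. Eno3 (red) lies at -2.35, 2.27 and -0.08 and Slc37a2 (blue) at -0.37, 2.02 and 1.65, and the other 38 genes lie between the dashed lines in all panels.

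The rest of the pathway was covered by lists of further genes. Of 21 other genes of glycolysis and hexose transport, 0 passed 2-fold in any comparison, and their differences lay between -0.28 and 0.29 in WT colitis against WT normal. Of 16 other genes of pyruvate and lactate, 1 was more than 2-fold higher and 1 lower in WT colitis, beside 1.16% and 0.456% of all genes. In IL-4Rα-/- colitis against WT colitis, 2 were higher and 0 lower, beside 0.271% and 0.908%. Pyruvate carboxylase (Pcx), which refills the TCA cycle, had 6.79, 5.47 and 6.52, 2.50-fold lower in WT colitis relative to WT normal and 2.07-fold higher in IL-4Rα-/- than in WT colitis. Slc5a8, a sodium-coupled carrier that takes up butyrate, lactate and pyruvate in the colon, had 9.77, 8.90 and 10.17, 2.41-fold higher in IL-4Rα-/- than in WT colitis. Malic enzyme 1 (Me1), which makes cytosolic pyruvate and NADPH, had 5.66, 6.68 and 6.12, 2.03-fold higher in WT colitis as deposited, but within 2-fold after quantile normalization, median centring or an offset of 32 and with the mean or the dimmer of its probe sets. With the offset, Pcx was within 2-fold in WT colitis as well, and 1 gene of the list stayed past 2-fold between the colitis arrays. Pcx and Slc5a8 were thus low in WT colitis and Me1 was high there.
Of 14 other TCA cycle genes, 9 were lower and 2 higher in WT colitis relative to WT normal (median -0.14), and 11 were higher and 0 lower in IL-4Rα-/- than in WT colitis (median 0.09). Beside them stand the same shares as above, 12.0% and 10.4% of all genes and 35.0% and 35.6% of bright genes, and this list too was chosen with the data known. The largest difference was that of Acly, which splits exported citrate for lipid synthesis, with 8.23, 7.23 and 7.81, which was exactly 2-fold as deposited and past it after quantile normalization or median centring. Succinyl-CoA ligase (Suclg1) had 8.06, 7.62 and 8.06, and succinate dehydrogenase subunit Sdhb had 8.41, 8.03 and 8.31. Of 15 genes of butyrate and fatty acid oxidation, 6 were higher and 7 lower in WT colitis, beside 35.8% and 12.0% of all genes. None of the 15 passed 2-fold, and Acadl, a long-chain acyl-CoA dehydrogenase, was the farthest at 0.87. Of 7 genes of the pentose phosphate pathway and 12 regulators of these enzymes, among them Hnf4a, Ppargc1a and Myc, 0 passed 2-fold in any comparison.
Hypoxia response genes outside glycolysis included 2 of 14 that were more than 2-fold higher in WT colitis relative to WT normal and 0 lower. Beside these stand 1.16% and 0.456% of all genes. The 2 higher genes were Bnip3, a mitophagy receptor (6.28, 7.84 and 6.88), 2.95-fold, and Egln3, a prolyl hydroxylase that marks HIF for decay (6.93, 8.18 and 7.74), 2.38-fold. Vegfa was equal on all 3 arrays at 6.96. With the dimmer probe set of Bnip3, 1 of the 14 was past 2-fold. By any amount, 12 were higher and 0 lower as deposited, but 6 were higher and 7 lower after quantile normalization, so no direction is given for the list. Examples of members known to be induced by hypoxia, picked after their values were seen, were Slc2a1, Hk2, Pfkfb3, Aldoa, Pgk1, Ldha, Pdk1 and Slc16a3. They differed by -0.11 to 0.21 between WT colitis and WT normal. Other glycolysis members lay outside that range, namely Eno2 (0.51), Tpi1 (-0.12), Pgam1 (-0.13) and Eno3 (-2.35), so nothing is read from it.

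**Figure D4:**
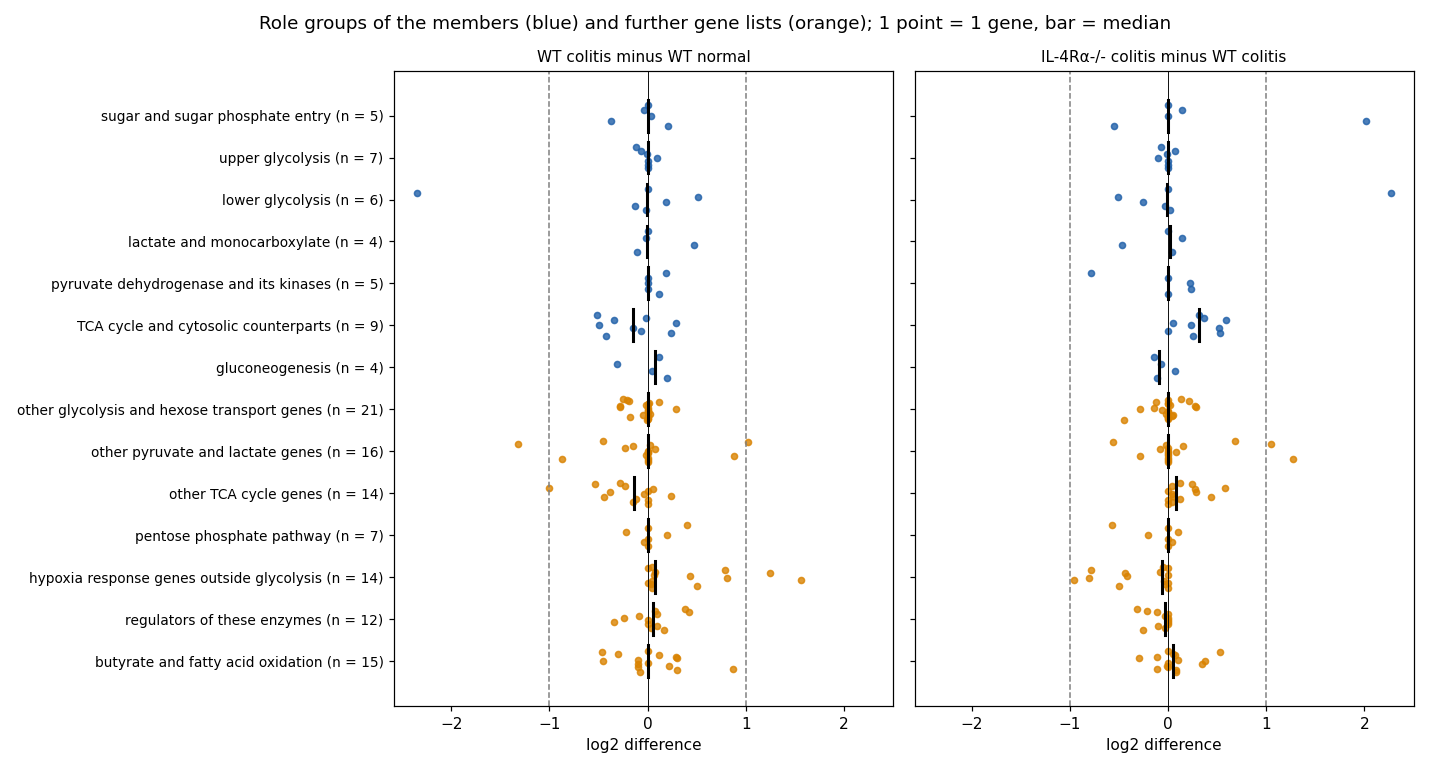
Log2 difference (x axis) of each gene (points) in the 7 role groups of the members (blue) and 7 further lists (orange), with the median as a black bar and dashed lines at 2-fold, for the comparisons of WT colitis with WT normal (left) and of IL-4Rα-/- colitis with WT colitis (right). The TCA cycle group has medians of -0.15 and 0.31 and the other TCA cycle genes -0.14 and 0.09, while the upper glycolysis points cluster at 0.

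Other cell types differed between the arrays too. Of 7 fibroblast genes, 6 were higher in WT colitis relative to WT normal as deposited, beside 35.8% of all genes. Lum was at 5.47 on each array. The sums of the 7 were 1343, 2676 and 1311, mostly that of Dcn (9.49, 10.76 and 9.49). Of 8 genes of enteric neurons and glia, set beside Eno2, 4 were higher, 1 was lower and 3 were equal in WT colitis relative to WT normal as deposited. Of all genes, 35.8% were higher and 12.0% lower. After median centring, 4 of the 8 were higher and 4 lower, so no direction is given. The sums of the 8 were 247, 327 and 224. The neuronal Snap25 differed most, by 0.64. The glial genes Sox10 and Gfap were equal on both WT arrays, and the glial S100b had 3.58, 3.41 and 3.41. Tubb3 and Elavl4 were at background on every array. The sums were 9534, 8714 and 8010 for smooth muscle and 605, 723 and 565 for genes of the small intestine. Of 7 neutrophil genes, 6 were higher in WT colitis relative to WT normal as deposited, beside 35.8% of all genes, with Il1b at 4.96, 5.71 and 4.96. Cxcr2 and Mpo were at background on every array. S100a8 (2.62, 4.27 and 2.58), S100a9 (3.22, 4.17 and 3.26) and Csf3r (3.16, 3.91 and 3.31) were above background in WT colitis alone. With the offset of 32, 0 of the 7 were past 2-fold. Their sum of 1274, 1911 and 1618 was mostly that of Ly6g (10.24, 10.81 and 10.60), and the list's median difference between IL-4Rα-/- colitis and WT normal was 0.04. Their parts in the results were not tested either.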

How the data were processed

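Distal colon RNA of pooled mice was measured on 3 arrays, 1 per group. The study's methods name the GeneChip Mouse Gene 1.0 ST Array, whereas the sample labels describe a Cy3 kit of another maker, and the row numbers are those of the GeneChip. The table of 28944 probe sets deposited by the authors holds log2 signals, rounded to 2 decimals. The study's methods name the GeneChip Analysis Suite software and median centring with log2 transformation for the displayed levels. Whether the deposited values were centred is not stated, and their medians of 4.11, 4.18 and 4.11 are not equal. The step that summarised probes was not given in the sources. Of these, 21789 had 1 gene symbol, 1621 several and 5534 none in the annotation used, and 21698 were matched to RefSeq (GRCm38.p6) by gene number. From the deposited values, log2 differences were taken and members more than 2-fold apart were counted, beside the share of all 19938 genes. With 1 array per group, the number of arrays limits the precision and no p-value was computed. The members and gene lists were chosen with earlier results of these data known, and every measured member is named. The alternatives were quantile normalization, median centring, an offset of 32, leaving out genes at background, the mean or the lowest of a gene's probe sets, and, chosen after seeing the data, probe sets linked to RefSeq transcripts. A median or difference was said to move when it changed by more than the scaled median absolute deviation over genes not equal on all arrays (0.178, 0.148 and 0.0741 in the 3 comparisons). Counting was tested on simulated data. Python 3.11.15, numpy 2.4.6, pandas 2.3.3 and matplotlib 3.10.9 were used.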

Additional observations from a re-analysis of the deposited data

How the results depend on the processing

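The counts of members past 2-fold kept their values, and the members' median differences moved by less than the stated spread, under all 7 alternatives, in all 3 comparisons, and no member past 2-fold changed sign. Single differences moved most often after 32 was added to each linear signal, which shrinks those of dim genes, in 14 of 120 cases. With it, Eno3 differed by -2.06 between WT colitis and WT normal and by 1.98 between the colitis arrays, and Slc37a2 by 1.39 from WT colitis and 1.19 from WT normal. The difference of Ldhb in WT colitis, 0.47, was 0 on its other probe set. The TCA cycle group's medians ranged from -0.23 to -0.14 for WT colitis against WT normal and from 0.30 to 0.38 between the colitis arrays. No paired analysis was possible because each group had 1 array. No difference, however large, has a replicate check.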
